A study of Mus musculus with 4 samples.

Results

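Voltage-gated ion channel genes of the mouse were followed in RNA from the dorsal raphe nucleus, a midline brainstem cell group in which many serotonergic neurons of the brain lie. The group comprises the voltage-gated sodium and calcium channel subunits, the hyperpolarization-activated channels and the potassium channel families, chosen by gene symbol (Kcn, Scn, Cacn and Hcn) with the inward rectifiers (Kcnj) and Kcne2 left out. This gave 96 genes, each read by 1 probe, of 16383 genes on the array. They were sorted into 14 families by symbol.

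The animals were 10-week-old C57BL/6J males, and each of the 4 single-colour microarrays took a pool of RNA from 5 of them. One array stands for wild-type (WT) mice without stress, 1 for WT mice after stress, 1 for stressed D2R-KO mice, which lack the dopamine D2 receptor, and 1 for stressed D2LR-KO mice, which lack its long form. Stressed mice swam for 6 min a day on 4 days, and the nucleus was dissected 12 h later. The comparisons ask which channel genes differ between stressed mice of each genotype and unstressed WT mice. No non-stressed knockout array was analysed here, so a difference between a knockout array and the non-stressed WT array holds both stress and genotype, which cannot be told apart. With 1 array per group no difference could be tested, no value has a replicate error, and precision is limited by how few arrays there are.

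Voltage-gated sodium channels carry the rising phase of the action potential, and voltage-gated calcium channels turn depolarization into calcium entry for transmitter release and signalling. Potassium channels repolarize the membrane and set its resting potential, its firing rate and the pause that follows each spike. Serotonergic raphe neurons are known for slow, regular firing with a long afterhyperpolarization, in which calcium-activated potassium channels of the SK type take part, together with A-type potassium current and low-threshold calcium current.

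Levels are given as the authors' deposited intensities, a linear brightness scaled so that each array has a median of 25. Folds come from the scanner values after background correction and quantile normalization, as differences of log2(signal + 50). That offset of 50 shrinks the folds of dim probes. The 2 scales can therefore differ for the same gene. Between 91.0% and 91.6% of 23464 gene probes were detected per array. Over all genes detected on the 4 arrays, the stressed WT array correlated with the other arrays at r = 0.954 to 0.962, whereas the other 3 correlated with each other at 0.990 to 0.994, so every comparison with the stressed WT array rests on an array that stood apart. Repeated control spots (48 spots of 2 controls) scattered between arrays with an SD of 0.110 to 0.209 on the log2 scale. That SD covers spots and not mice, and it leaves out a mean shift between arrays. From the non-stressed to the stressed WT array, 1 control shifted by a mean of 0.263 and the other by 0.0392. From stressed WT to D2R-KO the shifts were -0.307 and -0.0242, and to D2LR-KO they were -0.276 and 0.0705. Tph2, the serotonin-synthesizing enzyme that defines these neurons, read 31.4 on the non-stressed WT array, 10.7 on the stressed WT array, 264.6 on the D2R-KO array and 151.5 on the D2LR-KO array, so that this defining marker was low on both WT arrays. Drd2, the targeted gene, read 26.8, 43.8, 20.9 and 48.3 in the same order. Whether its probe lies in the deleted part is unknown here, so it does not check the labels. In tissue RNA, fewer cells of a type and less RNA per cell cannot be told apart.

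Of the 96 channel genes, 90 were detected on all 4 arrays (93.8%, against 89.8% of all genes) and 1, Kcng3, on 3. Cacna1s, Kcnh7 and Scn10a were above the detection limit on the non-stressed WT array only, and Cacna1b and Kcnv2 on none. Many channel genes were dim: 45 to 59 of them, depending on the array, read below the array median. In 65 of the 90 genes detected throughout (72.2%, against 74.4% of all genes) the brightest and dimmest arrays lay within 1.5-fold of each other.

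Promoters from RefSeq (build GRCm38.p6, 250 bases before to 50 after each start) were matched to 72 of the 96 genes and gave 99 windows. Their median GC content was 61.0%, against 52.7% over 32851 promoters of all genes, and they held a median of 11 CpG pairs against 7. A GC box (GGGCGG, searched on both strands) stood in 48.5% of the windows against 35.7% of all promoters, the E-box CACGTG in 5.05% against 7.15%, and the full cyclic AMP response element TGACGTCA in 0 of 99 windows against 1.79%. A match describes letters in a window and is neither a binding site nor a cause. The windows of 6 genes are printed because the arrays set these genes apart in 2 patterns described further on, and capitals mark GC boxes. Kcnma1 (chr14:24004156-24004455, minus strand, 3 GC boxes), Kcnmb4 (chr10:116473474-116473773, minus strand, 4 GC boxes), Kcnip2 (chr19:45816014-45816313, minus strand, 2 GC boxes) and Cacna2d1 (chr5:15934441-15934740, plus strand, 7 GC boxes) were lower on all 3 stressed arrays. Kcnt2 (chr1:140245468-140245767, plus strand) and Kcnn3 (chr3:89519914-89520213, plus strand) were highest on the stressed WT array and hold no GC box.
Kcnma1: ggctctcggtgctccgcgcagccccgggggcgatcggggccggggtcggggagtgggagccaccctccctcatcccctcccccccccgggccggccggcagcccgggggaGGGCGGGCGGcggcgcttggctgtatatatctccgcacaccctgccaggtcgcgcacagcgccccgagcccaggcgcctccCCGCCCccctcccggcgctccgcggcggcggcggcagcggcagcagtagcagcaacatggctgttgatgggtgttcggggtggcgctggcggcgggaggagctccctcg
Kcnmb4: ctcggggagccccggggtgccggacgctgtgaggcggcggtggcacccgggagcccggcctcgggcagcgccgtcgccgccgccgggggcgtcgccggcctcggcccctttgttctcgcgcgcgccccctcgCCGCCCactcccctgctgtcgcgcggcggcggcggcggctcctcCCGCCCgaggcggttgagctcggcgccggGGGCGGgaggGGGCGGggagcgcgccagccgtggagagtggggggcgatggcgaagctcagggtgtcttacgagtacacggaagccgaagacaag
Kcnip2: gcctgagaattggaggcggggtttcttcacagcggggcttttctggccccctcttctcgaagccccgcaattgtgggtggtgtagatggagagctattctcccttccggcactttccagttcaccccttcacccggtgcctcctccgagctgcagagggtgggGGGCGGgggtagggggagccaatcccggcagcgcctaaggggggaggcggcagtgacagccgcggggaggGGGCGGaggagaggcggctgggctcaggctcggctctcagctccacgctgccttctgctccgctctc
Cacna2d1: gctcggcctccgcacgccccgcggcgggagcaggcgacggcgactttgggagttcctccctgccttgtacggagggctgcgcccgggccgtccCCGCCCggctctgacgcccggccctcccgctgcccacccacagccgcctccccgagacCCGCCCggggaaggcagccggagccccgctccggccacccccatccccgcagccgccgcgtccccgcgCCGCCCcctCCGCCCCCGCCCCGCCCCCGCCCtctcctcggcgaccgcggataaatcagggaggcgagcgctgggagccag
Kcnt2: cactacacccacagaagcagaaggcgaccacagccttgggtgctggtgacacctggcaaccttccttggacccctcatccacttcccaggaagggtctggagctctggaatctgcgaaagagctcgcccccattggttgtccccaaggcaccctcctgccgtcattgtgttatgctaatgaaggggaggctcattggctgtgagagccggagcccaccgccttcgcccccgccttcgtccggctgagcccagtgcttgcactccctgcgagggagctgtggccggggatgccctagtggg
Kcnn3: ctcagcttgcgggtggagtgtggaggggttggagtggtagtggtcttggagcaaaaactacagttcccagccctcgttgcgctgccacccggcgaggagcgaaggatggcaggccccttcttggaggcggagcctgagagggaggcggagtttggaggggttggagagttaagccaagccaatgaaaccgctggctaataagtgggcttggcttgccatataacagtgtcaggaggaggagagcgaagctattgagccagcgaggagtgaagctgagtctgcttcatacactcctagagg
The 4 windows of the genes with lower stressed arrays are rich in GC (67.0% to 80.0%), with 18 to 48 CpG pairs each, against 62.7% and 12 pairs for Kcnt2 and 57.7% and 11 pairs for Kcnn3. These 6 windows were picked after the values had been seen and say nothing of the other channel genes. Cacnb2 and Cacng5, also highest on the stressed WT array, do hold a GC box.

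**Figure D1:**
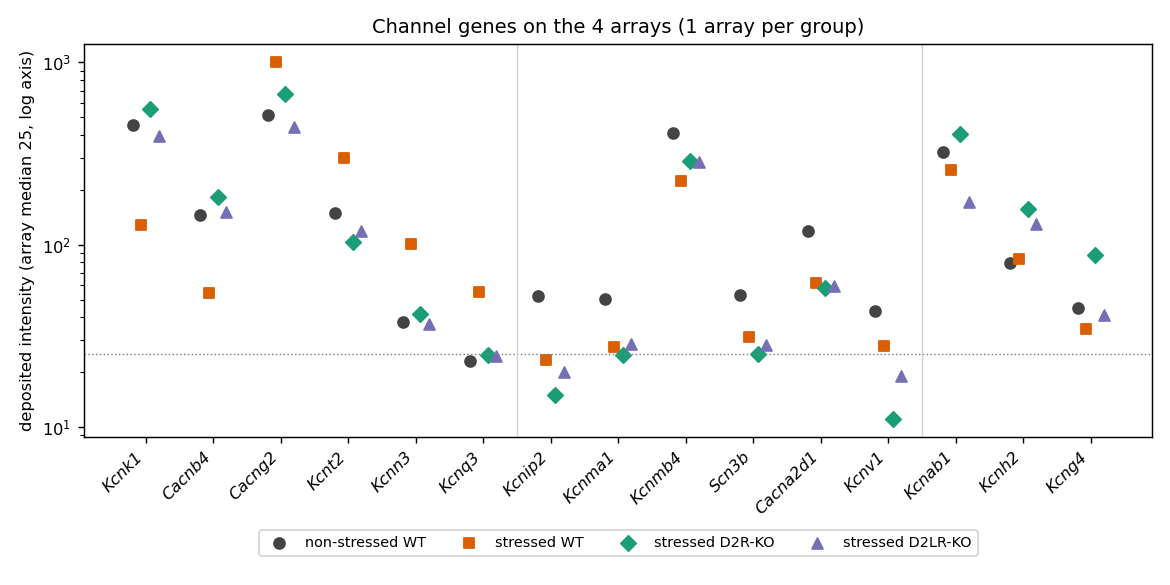
Deposited intensity (linear scanner brightness on a log axis, dotted line at the array median of 25) of 15 channel genes with 1 point for each of the 4 arrays (colours and marks in the legend) and no error bars. The left block holds genes set apart by the stressed WT array, such as Kcnk1 at 127.6 against 393.5 to 558.0 elsewhere, and the middle block holds 6 genes that were brightest on the non-stressed WT array.

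The stressed WT array differed from the non-stressed WT array by at least 2-fold in 4 of the 94 channel genes compared (4.26%, against 3.61% of all genes): Cacng2, Kcnt2 and Kcnn3 were higher and Kcnk1 lower. At 1.5-fold, 7 were higher (7.45%, against 7.28% of all genes) and 3 lower (3.19%, against 8.11% of all genes), so the share of higher genes was near the background. This split depended on the processing: it was 5 higher and 7 lower with arrays scaled to 1 median, 14 and 3 with scaling to the 75th percentile, 7 and 9 with the background taken around each spot and 7 and 7 in the deposited values. The shares of all genes moved as well. They were, in the same order, 2.69%, 12.4%, 9.9% and 4.56% higher and 16.5%, 7.94%, 9.94% and 12.8% lower. The 7 higher genes were Cacng2, Kcnt2, Kcnn3, Cacng5, Kcnq3, Cacnb2 and Cacna1a, and the 3 lower ones were Kcnk1, Cacnb4 and Kcnip2. The median channel gene was 0.05 log2 units higher, against 0.00 over all genes.

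Among the channels that set the resting potential and the afterhyperpolarization, the differences on the stressed WT array went both ways. Kcnk1, which encodes the background potassium channel TWIK-1, read 453.3 on the non-stressed WT array, 127.6 on the stressed WT array, 558.0 on the D2R-KO array and 393.5 on the D2LR-KO array. The stressed WT array alone was low, by 1.42 on the log2 scale against non-stressed WT, and the knockout arrays were 1.54 and 1.21 log2 units above it. Kcnn3, which encodes the small-conductance calcium-activated channel SK3, read 37.7, 101.1, 41.7 and 36.5 in the same order. Its stressed WT value was 2.16-fold that of non-stressed WT, with the other 3 arrays close together. Kcnt2, which encodes the sodium-activated channel Slick, read 150.1, 299.8, 103.2 and 118.2. It was 2.25-fold higher on the stressed WT array than on the non-stressed one, and both knockout arrays were below the non-stressed array too, by -0.50 and -0.28 log2 units.

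Kcnq3 and Cacna1a, from the M-type and P/Q-type channels, were also highest on the stressed WT array. Kcnq3, a subunit of the M current that damps repetitive firing, read 23.1 on the non-stressed WT array, 54.7 on the stressed WT array, 24.7 on the D2R-KO array and 24.4 on the D2LR-KO array, a 1.69-fold difference between the WT arrays. Cacna1a, the pore of the P/Q-type channel that drives transmitter release, read 33.8, 60.3, 41.8 and 40.7, a 1.52-fold difference between the WT arrays. In both genes the stressed WT array was the highest and the other 3 lay close together.

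Auxiliary calcium channel subunits held some of the widest differences. Cacng2, which encodes stargazin, a transmembrane regulator of AMPA receptors (a TARP) related to calcium channel gamma subunits, read 512.1 on the non-stressed WT array, 1006.7 on the stressed WT array, 670.5 on the D2R-KO array and 443.7 on the D2LR-KO array, and was 1.30 log2 units higher on the stressed than on the non-stressed WT array. Cacng5, another TARP, read 29.9, 67.5, 25.5 and 28.1. All 5 genes of the gamma and TARP family were higher on the stressed WT array than on the non-stressed one, by any amount. The share of all genes higher by any amount was not counted. The median of these 5 genes was 0.36 log2 units, against 0.00 over all genes, and it stayed above 0 under each scaling. With scaling to the 75th percentile the median of all genes was itself 0.30, so that sign does not set the family apart there. The beta subunits, which bring the calcium channel pore to the membrane, differed in both directions. Cacnb4 read 145.4, 54.0, 181.5 and 151.7, which put the stressed WT array lowest, by 0.96 below non-stressed WT (-0.96 on the log2 scale). Cacnb2, one of the 7 higher genes that was singled out after its values were seen, read 29.1, 59.0, 20.7 and 28.7, which put the same array highest. Cacnb3 was 0.45 log2 units higher on the stressed WT array, and -0.33 with the background taken around each spot, so its direction was not settled. Kcnab2, a cytoplasmic Kv1 partner, was 0.53 higher, and 0.06 with arrays scaled to 1 median.

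The 5 genes with the widest differences between the WT arrays kept their direction in all 10 alternatives, but not their size. On the log2 scale Kcnk1 ranged from -1.81 to -0.81, Cacnb4 from -1.21 to -0.31, Cacng2 from 0.73 to 2.34, Kcnt2 from 0.55 to 1.27 and Kcnn3 from 0.85 to 1.40. Kcnn3 was thus the steadiest of them, and Cacnb4 the one that came nearest to 0. Cacng5 kept its direction as well but was 0.05 with the background taken around each spot.

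Many of these genes set the stressed WT array apart from all the others. That array was the farthest from the rest in 48 of the 90 channel genes detected throughout (53.3%, against 62.2% of all genes). It was higher than each of the other 3 by at least 1.5-fold in 6 (Cacnb2, Cacng2, Cacng5, Kcnn3, Kcnq3 and Kcnt2), which is 6.67% against 5.75% of all genes. It was lower than each of the others in 2 (Cacnb4 and Kcnk1), which is 2.22% against 5.85% of all genes. With a limit of 1.25-fold, chosen after the values had been seen, the counts were 20 higher (22.2% against 13.6% of all genes) and 5 lower (5.56% against 13.4%). The arrays had no replicate, so the spread of a second stressed WT pool is unknown. Summed deposited intensities of 8 astrocyte markers were 5361.1 on the non-stressed WT array, 2242.4 on the stressed WT array, 4974.6 on the D2R-KO array and 4878.9 on the D2LR-KO array, with 3 of the 8 at least 1.5-fold lower on the stressed than on the non-stressed WT array and a median of -0.28 log2 units. Of 9 pan-neuronal markers, 1 was higher and 1 lower in that comparison, with a median of -0.08. The part of either list in the channel differences was not tested.

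**Figure D2:**
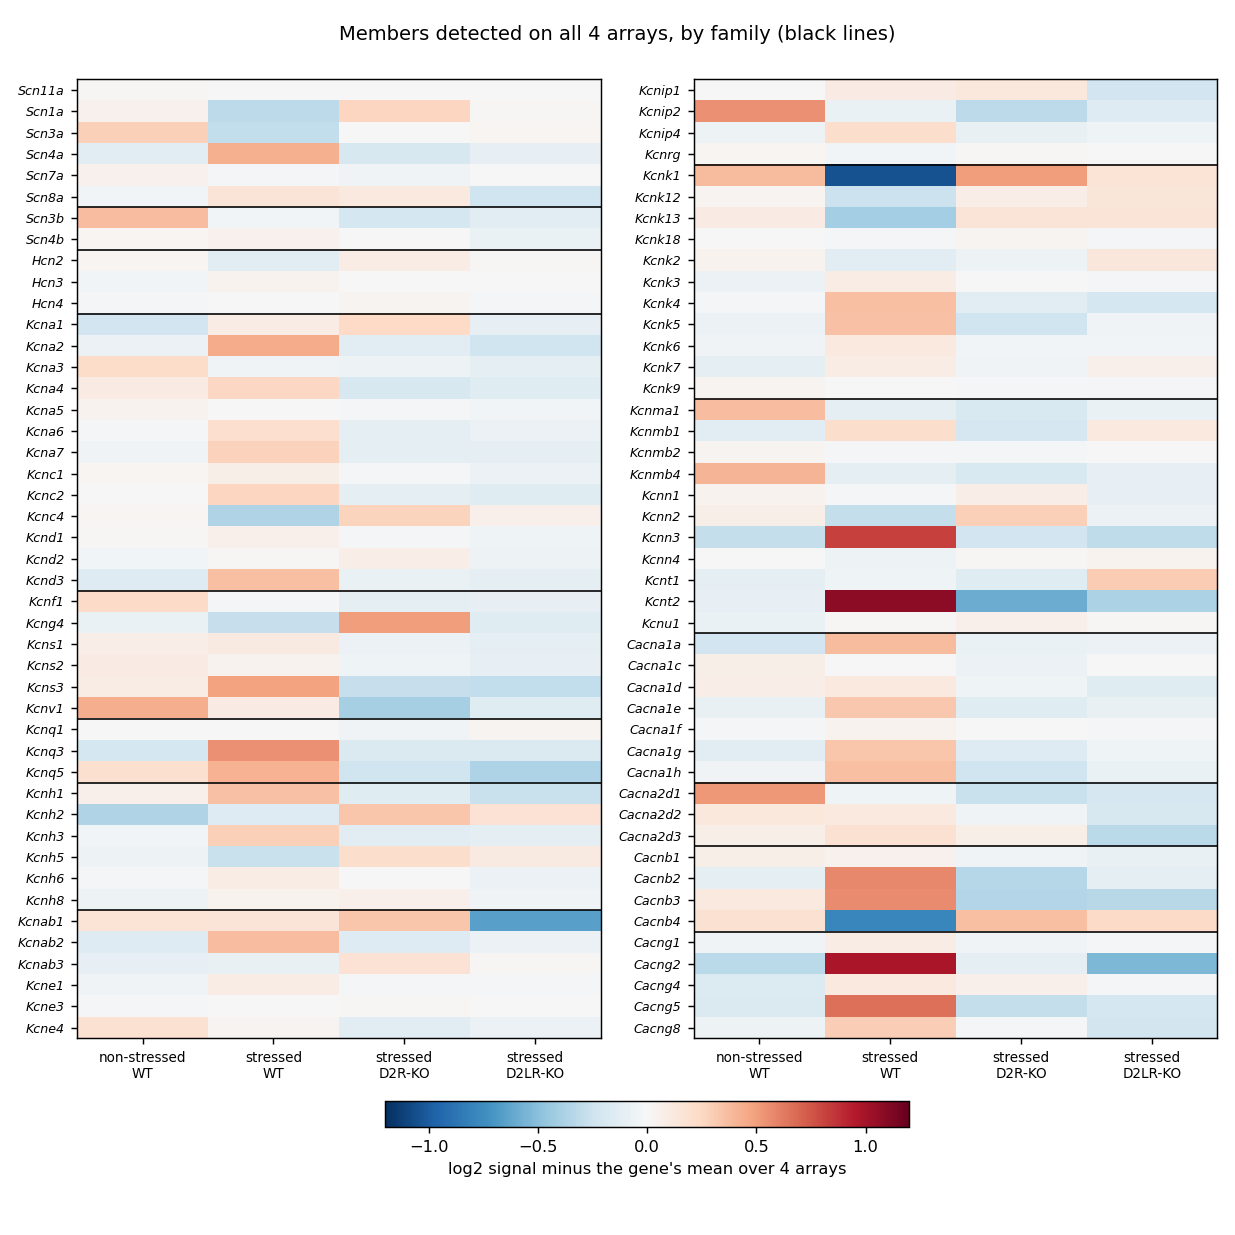
Log2 signal of the 90 channel genes detected on all 4 arrays, each minus its own mean over the arrays (red higher, blue lower), in 1 column per array and with black lines between families. The stressed WT column carries the strongest colours: it was the array farthest from the others in 48 of the 90 genes (53.3%, against 62.2% of all genes).

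The non-stressed WT array stood above all 3 stressed arrays in a different set of genes. By at least 1.25-fold, a limit chosen after the values had been seen, it was higher than each of the others in 6 of 90 channel genes (6.67%, against 1.37% of all genes) and lower in 0 (against 0.469% of all genes). The 6 were Kcnip2, Cacna2d1, Kcnv1, Scn3b, Kcnma1 and Kcnmb4, and Kcnip2 alone also passed 1.5-fold (0.36% of all genes did). The direction of each of the 6 against the non-stressed array was the same under every alternative processing tried. The 3 comparisons share the non-stressed array, so 1 high reading there lowers all 3 folds together.

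Both parts of the large-conductance calcium-activated potassium channel were in this set, and both promoters are printed above. Kcnma1 encodes the BK pore, which ends the spike and shapes the fast afterhyperpolarization, and read 50.6 on the non-stressed WT array, 27.3 on the stressed WT array, 24.7 on the D2R-KO array and 28.4 on the D2LR-KO array. Its log2 differences from non-stressed WT were -0.48, -0.55 and -0.45. Kcnmb4, the beta subunit of neuronal BK channels, read 407.5, 222.1, 289.4 and 284.6, with log2 differences of -0.52, -0.59 and -0.51. On this scale the 3 stressed arrays lay within 1.07-fold of each other in both genes. For Kcnmb4 this rests on the quantile normalization: the deposited intensity was 1.30-fold higher on D2R-KO than on stressed WT, and the log2 difference was 0.43 with arrays scaled to 1 median. The other BK genes did not share the pattern: Kcnmb1 read 18.4, 30.6, 15.8 and 27.1, and Kcnmb2 read 19.8, 18.3, 17.8 and 18.6.

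The remaining 4 genes of the set are 3 auxiliary subunits and a silent potassium channel subunit. Kcnip2, a calcium-binding partner of the Kv4 channels that carry A-type current, read 52.5 on the non-stressed WT array, 23.3 on the stressed WT array, 15.0 on the D2R-KO array and 20.0 on the D2LR-KO array. The non-stressed array was 1.54-fold, 1.82-fold and 1.64-fold above the stressed ones. Cacna2d1, the alpha2delta subunit that binds gabapentin and carries calcium channels to the terminal, read 118.8, 62.0, 57.9 and 59.6, with log2 differences of -0.57, -0.79 and -0.72. Kcnv1, a silent subunit that alters Kv2 channels, read 43.3, 27.8, 11.1 and 19.1, which ordered the stressed arrays from WT to D2LR-KO to D2R-KO. Scn3b, an auxiliary beta subunit of sodium channels, read 52.8, 31.3, 25.2 and 28.1. All 4 were highest on the non-stressed array.

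Kv4 pores and other auxiliary subunits of the same kinds are given for comparison. Kcnd2, the Kv4.2 pore with which Kcnip2 assembles, read 243.1, 206.0, 295.3 and 242.4, within 0.14 log2 units over the 4 arrays. Kcnd3, the Kv4.3 pore, read 14.6, 32.9, 17.0 and 15.8 and was highest on the stressed WT array. Kcnip4, another Kv4 partner, read 141.4, 149.2, 148.0 and 143.8. Cacna2d2, an alpha2delta subunit, read 180.9, 151.6, 170.8 and 140.3, and Cacna2d3, another one, read 156.7, 145.6, 168.8 and 110.8, lowest on the D2LR-KO array.

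Markers of other tissue moved with the same contrast. The summed deposited intensity of 5 choroid plexus markers was 13036.3 on the non-stressed WT array, 5752.9 on the stressed WT array, 39.0 on the D2R-KO array and 218.9 on the D2LR-KO array, and 4 of the 5 were at least 1.5-fold lower on each stressed array. Of 9 forebrain pyramidal neuron markers, 8 were at least 1.5-fold lower on the D2R-KO array and 7 on the D2LR-KO array than on the non-stressed one, with medians of -1.18 and -1.12 on the log2 scale, but 1 of 9 was lower and 2 were higher on the stressed WT array. The summed values of that list were 6842.9, 7685.6, 2375.9 and 2426.5. The part of either list in the 6 channel genes was not tested.

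**Figure D3:**
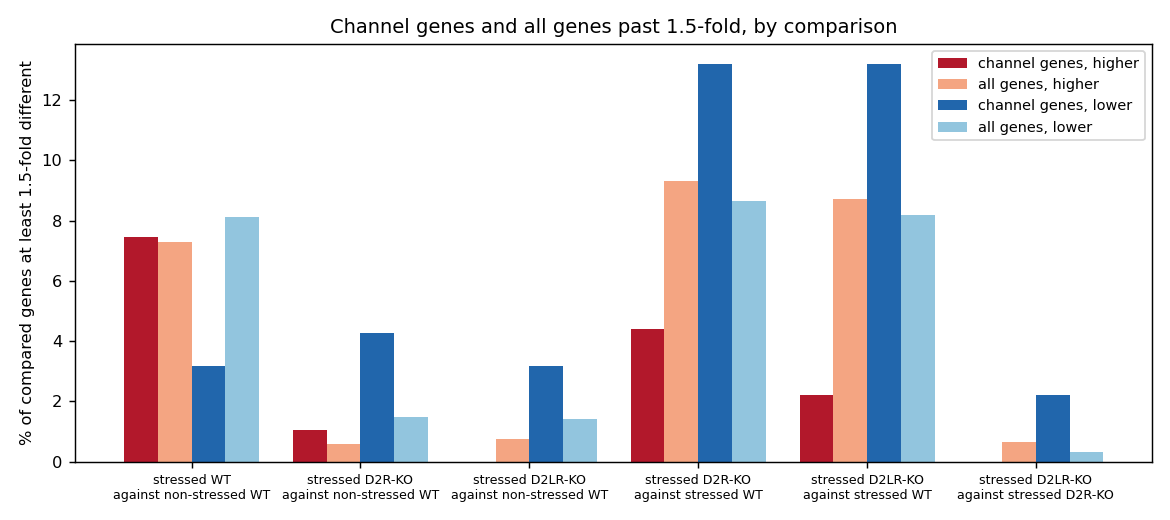
Percent of the compared channel genes (91 to 94) and of all compared genes that were at least 1.5-fold higher or lower in each of the 6 comparisons of 2 arrays, as bars without error because each group had 1 array. Bars for the knockouts against stressed WT show 13.2% of channel genes and 8.64% of all genes lower on D2R-KO, and 2.2% and 8.72% higher on D2LR-KO.

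Against the non-stressed WT array, the knockout arrays differed in few channel genes, and none reached 2-fold (0.436% and 0.417% of all genes did). On the D2R-KO array 1 gene, Kcnh2, was at least 1.5-fold higher (0.577% of all genes) and 4 were lower (Kcnip2, Cacna2d1, Kcnv1 and Kcnmb4; 1.48% of all genes). On the D2LR-KO array 0 were higher (0.745% of all genes) and 3 were lower (Kcnip2, Cacna2d1 and Kcnab1; 1.41% of all genes). The median channel gene stood at -0.02 and -0.04 log2 units, against 0.01 and 0.00 over all genes.

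Kcnh2, which encodes the ERG1 potassium channel known for cardiac repolarization and also present in brainstem neurons, read 79.2 on the non-stressed WT array, 83.6 on the stressed WT array, 157.7 on the D2R-KO array and 129.3 on the D2LR-KO array. Both knockout arrays were above both WT arrays, with log2 differences from non-stressed WT of 0.69 and 0.53. Of the 90 channel genes it was the only one for which both knockout arrays exceeded both WT arrays by at least 1.25-fold (1.01% of all genes did). The smallest gap between a knockout and a WT array was 0.33 log2 units, just past that limit (0.32). Both knockout arrays stayed above both WT arrays under every alternative processing, but not always by that limit. With the background taken around each spot, D2R-KO was 0.245 log2 units above stressed WT. The lowest value of D2LR-KO against stressed WT among the alternatives was 0.27.

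Lower on both knockout arrays than on both WT arrays, by the same limit, were 3 channel genes (1.33% of all genes). Cacnb3, a calcium channel beta subunit, read 84.4 on the non-stressed WT array, 108.1 on the stressed WT array, 54.3 on the D2R-KO array and 53.2 on the D2LR-KO array. Kcnq5, a further M-current subunit, read 39.2, 46.7, 21.4 and 16.6, and Kcns3, a silent subunit, read 73.5, 92.5, 52.4 and 48.8. Kcnq5 and Kcns3 were singled out after their values were seen. The same 2 knockout arrays had the low forebrain pyramidal sums given above. Their sums of 9 serotonergic markers were higher (3725.6 and 3901.0, against 2602.6 and 2163.9 on the WT arrays). Of these 9, 4 were at least 1.5-fold above non-stressed WT on D2R-KO and 3 on D2LR-KO, and 0 were lower by that limit. The medians were 0.55 and 0.45 log2 units. Sums of 4 hindbrain markers, the glycinergic Slc6a5 and the Hox genes Hoxb5, Hoxb4 and Hoxa5, were 467.6 and 274.3, against 93.9 and 14.0. Slc6a5 alone read 3.0 and 2.4 on the non-stressed and stressed WT arrays, 231.9 on D2R-KO and 53.2 on D2LR-KO. Pvalb, a marker of fast-spiking neurons, read 140.7, 124.6, 405.5 and 336.8. The GABA neuron markers of the same list did not share this: Gad2 read 504.4, 300.8, 591.1 and 358.2, and Slc32a1 392.5, 430.0, 624.4 and 354.6. Both were below non-stressed WT on the D2LR-KO array. Whether these lists take part in the 4 channel differences was not tested.

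Against the stressed WT array, each knockout array was at least 2-fold different in 5 of 91 channel genes (5.49%, against 5.29% of all genes for D2R-KO and 4.44% for D2LR-KO), with 2 higher (Kcnk1 and Cacnb4) and 3 lower (Cacng2, Kcnt2 and Kcnn3) on both. At 1.5-fold the D2R-KO array was higher in 4 (4.4%, against 9.31% of all genes) and lower in 12 (13.2%, against 8.64%), and the D2LR-KO array was higher in 2 (2.2%, against 8.72%) and lower in 12 (13.2%, against 8.2%). Lower on both were Cacnb2, Cacnb3, Cacng2, Cacng5, Kcnn3, Kcnq3, Kcnq5, Kcns3 and Kcnt2. The D2R-KO array was also lower in Cacna1h, Kcnk5 and Scn4a, and the D2LR-KO array in Kcna2, Kcnab1 and Kcnh1. These splits depended on the scaling, as did the shares of all genes. With each array scaled to 1 median, 11 genes were higher and 7 lower on the D2R-KO array, and 3 higher and 8 lower on the D2LR-KO array. Of all genes, 18.5% were then higher and 3.76% lower on D2R-KO, and 12.0% and 4.35% on D2LR-KO. Both comparisons use the stressed WT array, which stood apart from the rest, and the 5 genes past 2-fold all differed at least 1.5-fold between the WT arrays too.

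The values of these 5 genes are given with the stressed WT array above. Kcnk1 was 2.92-fold and 2.31-fold higher on the D2R-KO and D2LR-KO arrays than on the stressed WT array, and Cacnb4 was 2.21-fold and 2.02-fold higher. Kcnt2 was 3.18-fold and 2.73-fold lower, Cacng2 2.15-fold and 2.88-fold lower, and Kcnn3 2.07-fold and 2.19-fold lower. For each of these, the knockout arrays lay nearer to the non-stressed WT array than to the stressed one. Some sizes moved with the processing: Cacng2 on the D2R-KO array went from -1.10 to -0.46 log2 units when arrays were scaled to 1 median, and Cacnb4 on the D2LR-KO array from 1.01 to 0.38 when background was measured beside each spot.

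Of all 91 channel genes compared, 63 were below stressed WT on the D2R-KO array and 64 on the D2LR-KO array, at any size of difference. The median channel gene stood at -0.09 and -0.11 log2 units, against -0.01 and -0.01 over all genes. The share of all genes below stressed WT was not counted. All 7 detected calcium channel pores (Cav alpha1) were lower on the D2R-KO array, with a median of -0.46 log2 units, and 6 of 7 on the D2LR-KO array, with a median of -0.38. Of these, Cacna1h, a T-type pore of low-threshold current singled out after its values were seen, read 34.5 on the non-stressed WT array, 50.7 on the stressed WT array, 26.4 on the D2R-KO array and 32.2 on the D2LR-KO array and was the only pore past 1.5-fold, on D2R-KO. The family medians stayed below 0 under each scaling. With scaling to the 75th percentile the median of all genes was itself -0.30 on D2R-KO and -0.10 on D2LR-KO, so that sign does not set the family apart there. Of the 3 M-current and related genes (Kcnq), 2 were at least 1.5-fold lower on each knockout array, namely Kcnq3 and Kcnq5 (8.64% and 8.2% of all genes were). Kcnk5, a background potassium channel sensitive to pH, read 57.4, 76.7, 49.0 and 58.9 and was 0.60 below stressed WT on the D2R-KO array (-0.60 on the log2 scale).

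Besides Kcnk1 and Cacnb4, Kcnc4 and Kcng4 were at least 1.5-fold higher on the D2R-KO array than on the stressed WT array. Kcnc4, the Kv3.4 pore of fast-repolarizing current, read 47.4 on the non-stressed WT array, 28.9 on the stressed WT array, 64.7 on the D2R-KO array and 48.9 on the D2LR-KO array, and was 0.63 log2 units higher on D2R-KO than on stressed WT. Kcng4, a silent subunit of Kv2 channels, read 44.8, 34.4, 87.8 and 41.3. Its D2R-KO value was the highest, by 0.58 log2 units over non-stressed WT and 0.78 over stressed WT and by 1.57-fold over D2LR-KO, and it was the only channel gene higher there than on each other array by at least 1.25-fold (0.639% of all genes).

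The knockout arrays were close to each other. Between D2LR-KO and D2R-KO, 0 of 91 channel genes differed by 2-fold (0.199% of all genes did), 0 were at least 1.5-fold higher (0.666% of all genes) and 2, Kcnab1 and Kcng4, were at least 1.5-fold lower (0.333% of all genes). Kcnab1, a cytoplasmic beta subunit that speeds the inactivation of Kv1 channels, read 323.6 on the non-stressed WT array, 256.8 on the stressed WT array, 406.4 on the D2R-KO array and 170.7 on the D2LR-KO array. The D2LR-KO array was lower than each other array by at least 1.5-fold, as in 0.0408% of all genes, and 0.98 below D2R-KO (-0.98 on the log2 scale). This reading depended on the background: taken around each spot, the difference from non-stressed WT turned from -0.82 to 0.89 and that from D2R-KO shrank to -0.27. The related Kcnab2 (232.4, 280.6, 257.3 and 253.3) and Kcnab3 (135.5, 116.1, 183.9 and 150.3) were not lowest on D2LR-KO. Kcnt1, the sodium-activated channel Slack, was singled out after its values were seen and read 1.6, 3.4, 1.0 and 11.5, dim on every array and highest on D2LR-KO.

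**Figure D4:**
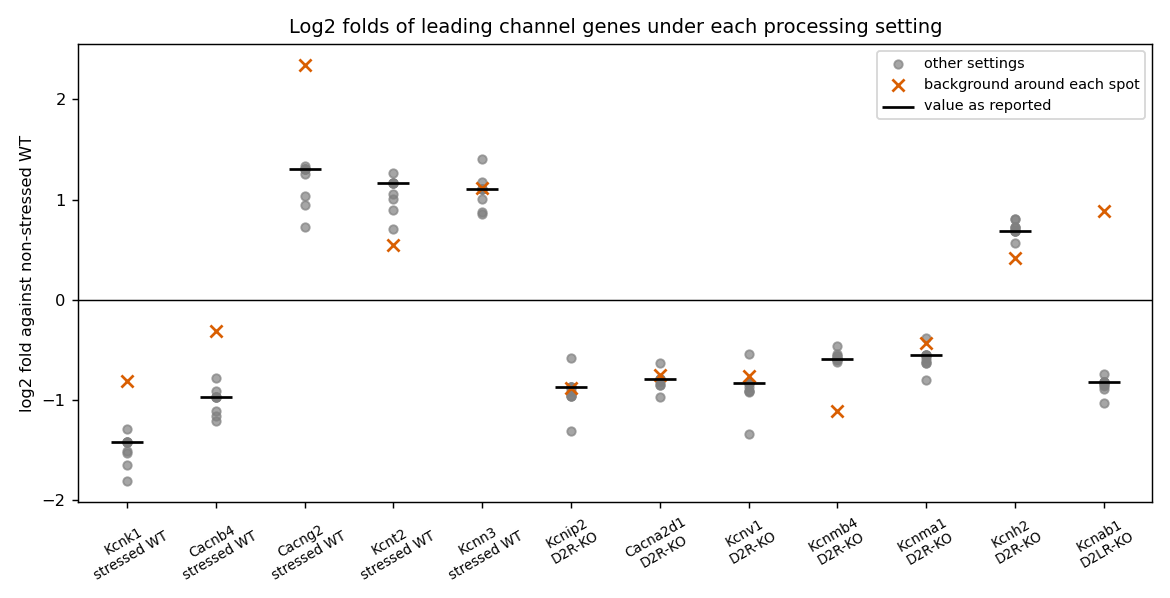
Log2 fold against non-stressed WT of 12 channel genes on the array named under each gene, as reported (black bar) and under 10 or 11 alternative processing settings (grey points, with crosses for the background taken around each spot). All points of the first 11 genes lie on the same side of 0 as the reported value, and Kcnab1 on the D2LR-KO array crosses from -0.82 to 0.89.

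Sodium channel and Kv pores, which carry the action potential itself, are given next. Scn1a, the Nav1.1 pore typical of fast-spiking cells, read 68.4 on the non-stressed WT array, 43.2 on the stressed WT array, 89.1 on the D2R-KO array and 65.1 on the D2LR-KO array, and was lowest on stressed WT. Scn8a, the Nav1.6 pore of the axon initial segment, read 93.2, 95.6, 113.7 and 75.8. Scn3a, the Nav1.3 pore best known from the immature brain and singled out after its values were seen, read 32.8, 13.1, 21.4 and 22.1, highest on the non-stressed array and lowest on stressed WT (-0.58 on the log2 scale). Among the 7 sodium channel pores the median difference was -0.04 log2 units on each stressed array against non-stressed WT, and none passed 1.5-fold. The pores of the Kv1 to Kv4 families were alike in this respect, with 0 of 13 past 1.5-fold against non-stressed WT on any stressed array. Against stressed WT, Scn4a and Kcnc4 (D2R-KO) and Kcna2 (D2LR-KO) passed that limit, as given above. Kcna1, the Kv1.1 pore of axons, read 810.2, 799.2, 1299.3 and 923.0 and was highest on D2R-KO. Kcna2, the Kv1.2 pore that assembles with it, read 45.8, 69.9, 44.2 and 37.3 and was highest on stressed WT.

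Pacemaker and low-threshold channels had mostly dim probes. Hcn2, a pacemaker cation channel, read 10.0 on the non-stressed WT array, 6.7 on the stressed WT array, 11.7 on the D2R-KO array and 9.6 on the D2LR-KO array. Hcn3 and Hcn4 stood below 8 on every array. Cacna1g, the T-type pore Cav3.1, read 18.2, 35.2, 17.5 and 20.9 and was highest on stressed WT. The L-type pores, known in pacemaking, were Cacna1c (5.3, 4.3, 2.4 and 3.9) and Cacna1d (26.1, 27.5, 21.6 and 17.9), whose array values lay within 0.14 and 0.27 log2 units. No level was available for Cacna1b, the N-type pore, since its probe was not above the detection limit on any array.

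Background potassium channels other than Kcnk1 differed by less than 1.5-fold from non-stressed WT. Kcnk13, the THIK-1 channel known from microglia, read 95.2, 52.3, 105.7 and 98.5, lowest on stressed WT (-0.51 on the log2 scale), while the summed values of 5 microglia markers were 475.9, 408.3, 502.1 and 553.7. Kcnk2, the mechanosensitive TREK-1, read 20.2, 15.5, 16.8 and 23.5. The acid-sensitive channels Kcnk3 (TASK-1; 6.6, 11.8, 8.4 and 7.9) and Kcnk9 (TASK-3; 2.1, 1.7, 1.3 and 1.2) were near the floor of the scale. Among the other SK genes, Kcnn2, which encodes SK2, read 120.0, 75.9, 154.4 and 104.3, with the stressed WT array lowest, and so ran opposite to Kcnn3 on that array. Cacng4, a TARP, read 34.0, 44.6, 46.0 and 40.3 with no array apart.

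Genes that act beside these channels (anchors, further auxiliary subunits, leak and TRP channels, chloride channels and ion pumps) were given by a list of 53, of which 43 had a probe. On the stressed WT array 2 of them were at least 1.5-fold higher than on the non-stressed one (Ano1 and Atp2b1) and 4 lower (Atp1b2, Fgf13, Itpr1 and Trpm7), with a median of 0.00 log2 units; of all genes 7.28% were higher and 8.11% lower. On each knockout array 1 was higher (Stac2, an adaptor of L-type channels) and 1 lower (Trpc4, a receptor-operated cation channel) than on the non-stressed WT array, where 0.577% and 0.745% of all genes were higher and 1.48% and 1.41% lower. Against stressed WT, 3 were higher and 4 lower on D2R-KO (all genes 9.31% and 8.64%), and 2 higher and 6 lower on D2LR-KO (all genes 8.72% and 8.2%). Between the knockouts 1 was lower on D2LR-KO (Atp1b1, a subunit of the sodium pump; 0.333% of all genes were).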

How the data were processed

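Each array carried total RNA pooled from 5 mice, amplified and labelled with Cy5, per the labels. The scanner files, from 3 scans of each array, hold the median intensity at 635 nm inside and around each spot, per the file headers. The authors' deposited value table holds intensity on a linear scale, which equals the spot median minus 1 constant and divided by 1 factor per array, as found from the values. The sources do not say how the 3 scans became 1 value. No per-sample column was left unused (0 columns).

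From the spot medians, background was corrected by normexp with the blank spots as negative controls (nec, offset 50) in limma 3.58.1 (R 4.3.3), then log2 was taken and the arrays were quantile normalized. Probes counted as detected when brighter than the blank spots' mean by over 2 of their SDs. A gene entered a comparison when detected on at least 1 of its 2 arrays. Further steps used Python 3.11.15, numpy 2.4.6 and pandas 2.3.3. The procedure was tested on simulated data. Genes came from the series' probe table (16631 of 23473 probes with 1 symbol), with older symbols updated through RefSeq (GRCm38.p6). All 96 channel symbols stood there, and 2 probes whose older symbols RefSeq now places among channel genes were not counted as members.

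The named genes are a list of 23, of which 20 were analysed here, and up to 5 per direction and comparison with the largest difference. No least size of difference was asked of these, so some lay below 1.5-fold. Genes with a weak signal on both arrays of a comparison were passed over in that ranking. Genes past 2-fold in a comparison were named too. Other names were chosen after their values were seen, as the text says. The members, gene lists and marker lists were chosen with earlier results of these data known. Alternatives covered background, normalization, source of the values, offset, detection limit, filter, several probes of a gene and 1 normalization without the stressed WT array. No p-value is given, because each group has 1 array.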

Additional observations from a re-analysis of the deposited data

How the results depend on the processing

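No paired analysis was possible because each group has 1 array and the labels carry no replicate numbers. Counts of channel genes at least 1.5-fold different were 10 for stressed WT against non-stressed WT, 5 and 3 for D2R-KO and D2LR-KO against non-stressed WT, 16 and 14 against stressed WT, and 2 between the knockouts; at 2-fold they were 4, 0, 0, 5, 5 and 0. A stricter detection limit, no filter, detection on all 4 arrays and the mean of a gene's probes left every count within 1.5 times of these. With background measured beside each spot, the 1.5-fold counts for the 3 comparisons with non-stressed WT were 16 (7 higher, 9 lower), 13 (5 and 8) and 11 (3 and 8), that of D2LR-KO and stressed WT was 9 (1 and 8), and that between the knockouts was 4. The 2-fold counts were 4 (D2R-KO, non-stressed WT), 3 (D2LR-KO, stressed WT) and 1 (the knockouts). At 1.5-fold, 9.9%, 7.02% and 6.94% of all genes were higher and 9.94%, 5.04% and 4.76% lower than on non-stressed WT. The shares were 7.28% and 6.87% for D2LR-KO against stressed WT, and 3.0% and 2.47% between the knockouts. With each array scaled to 1 median, stressed WT against non-stressed WT had 2 genes past 2-fold, both lower, and at 1.5-fold 5 higher and 7 lower (all genes 2.69% and 16.5%). D2LR-KO against non-stressed WT had 1 gene past 2-fold, and at 1.5-fold 0 higher and 8 lower (all genes 0.347% and 2.9%). D2R-KO against stressed WT had 3 past 2-fold. Between the knockouts 1 gene passed 2-fold, and at 1.5-fold 0 were higher and 6 lower (all genes 0.417% and 2.03%). With scaling to the 75th percentile, the median of all genes moved to 0.30 log2 units for stressed WT, 0.18 for D2LR-KO (each relative to non-stressed WT), -0.30 and -0.10 for D2R-KO and D2LR-KO against stressed WT and 0.16 between the knockouts. The channel medians moved with it, to 0.40 for stressed WT against non-stressed WT and -0.40 for D2R-KO against stressed WT, with 17 (14 higher, 3 lower) and 29 genes (3 and 26) past 1.5-fold, and 1 past 2-fold between the knockouts. The split was 1 higher and 3 lower on D2LR-KO relative to non-stressed WT (all genes 1.06% and 1.26%). It was 1 and 2 between the knockouts (all genes 0.865% and 0.532%). Of all genes, 12.4% were higher and 7.94% lower on stressed WT than on non-stressed WT under this scaling. For D2R-KO against stressed WT these shares were 9.59% and 12.8%. The deposited values gave 8 (3 and 5) and 5 genes past 1.5-fold for the knockouts against non-stressed WT, 3 past 2-fold for D2R-KO against stressed WT and 1 between the knockouts. They gave 7 higher and 7 lower for stressed WT against non-stressed WT, and 10 higher and 9 lower for D2R-KO against stressed WT. Of all genes, 4.56% were higher and 12.8% lower in the former comparison, and 17.7% and 5.26% in the latter. Against non-stressed WT the shares were 1.67% and 1.33% for D2R-KO, and 1.03% and 1.52% for D2LR-KO. An offset of 16 raised the 2-fold counts to 7, 2, 1, 11, 9 and 2 in the order above. It raised the 1.5-fold counts to 19, 11, 10, 33 and 29 for all but the knockout pair. These were 12, 2, 2, 8 and 7 higher and 7, 9, 8, 25 and 22 lower. The shares of all genes rose as well, to 11.7%, 1.37%, 1.61%, 14.4% and 13.6% higher and 13%, 2.71%, 2.36%, 13.3% and 12.7% lower. An offset of 100 lowered the 1.5-fold counts to 6, 1, 1, 9, 9 and 1, and the 2-fold counts against stressed WT to 3 and 3. Of all genes, 4.72%, 0.391%, 0.424%, 6.24%, 5.86% and 0.391% were then at least 1.5-fold higher, and 5.46%, 0.942%, 0.88%, 5.98%, 5.54% and 0.192% lower. Normalizing without the stressed WT array, an alternative chosen after seeing the data, gave 5 for D2LR-KO against non-stressed WT at 1.5-fold and 1 between the knockouts at 2-fold. The cause of these moves was not tested. Dim probes limit what could be seen: 45 to 59 of the 96 channel genes read below the array median, where the offset shrinks folds.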
